A study of Mus musculus with 29 samples.

Results

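Of the 4 chromatin segmentations that the authors deposited for RAW264.7 cells, the one with 18 states was set against the untreated one with 27 states. A segmentation gives each 200 bp step of the genome a single state number, and each number stands for a recurring combination of marks. All steps of chromosomes 1 to 19 and X entered the comparison, 13194954 of the 13274547 steps on all sequences, or 2639 Mb. They form 407799 intervals in the 18-state segmentation and 544182 in the 27-state segmentation, with a median interval of 800 bp in each. All 18 and all 27 numbers were present and are accounted for.

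RAW264.7 is a macrophage-like mouse cell line from a tumour induced with Abelson murine leukaemia virus, so every group below is a transformed line and not a primary macrophage. Chromatin immunoprecipitation and sequencing covered 7 histone marks before and at 1 h and 4 h of treatment with 100 ng/ml lipopolysaccharide (LPS), and the transcription factor PU.1 before treatment. Each mark and condition has 1 library among the 29 samples, and the flavopiridol samples were not used here. The peak lists carry no read totals, so depth is unknown, and no p-value is given.

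H3K4me1 marks enhancers and the flanks of promoters, H3K4me3 marks promoters, and H3K27ac marks the enhancers and promoters that are active. H3K27me3 is laid down by Polycomb repressive complex 2 on silent developmental genes, and the same lysine cannot be acetylated and methylated at once. H3K79me2 and H3K36me3 follow transcription along gene bodies, H3K36me2 spreads over wider genic and intergenic domains, and PU.1 is the factor that defines the macrophage lineage and binds many of its enhancers.

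The sample descriptions tie different libraries to the segmentations. Untreated H3K4me1, H3K4me3, H3K36me2, H3K36me3, H3K79me2 and input name both files. H3K27ac and H3K27me3 name the 27-state files only, and PU.1 names neither. The LPS libraries of all 7 marks also name the untreated 27-state file. The 18-state file carries no condition in its own label, and it is taken as untreated because the untreated libraries alone name it. Coverage of the state numbers by these marks is therefore a description, while PU.1 is a readout that neither file names. Below, 13/16 means the steps with number 16 of the 27-state segmentation inside number 13 of the 18-state segmentation. Coverage is the percent of bases inside the authors' untreated peaks.

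Most of the genome kept a simple relation between the segmentations, because 3 numbers with few marks hold most of it. Numbers 16, 17 and 18 of the 18-state segmentation cover 40.3, 588 and 1535 Mb, and 67.7% of all steps are 17/27 or 18/27. For each 18-state number, the largest 27-state number was taken, and 81.9% of all steps lay in it. This share was 72.7% over the 476.3 Mb outside numbers 16, 17 and 18, so the mark-poor numbers raise it. By chromosome it was 73.1% to 86.7% on autosomes and 93.3% on X, above every autosome.

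A 27-state number was counted as a component of an 18-state number if it held at least 5% of its length. Of 486 possible pairs, 262 occurred and 34 were components, which is 7.0% of the possible pairs. With a minimum of 1% there were 60. Numbers 6, 8, 9, 11 and 17 had 1 component each. The other 13 numbers split, 10 of them into 2 components and numbers 4, 14 and 16 into 3. Just inside the 5% limit lay 14/20 (5.67%), 10/7 (6.10%) and 7/9 (6.13%), and just outside it 6/8 (4.80%), 10/8 (4.71%) and 13/18 (4.71%). Looking the other way, 25 of the 27 numbers were a component of some 18-state number, and 17 of the 27 took at least 90% of their length from 1 source. Numbers 18 and 21 of the 27-state segmentation were a component of none.

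**Figure D1:**
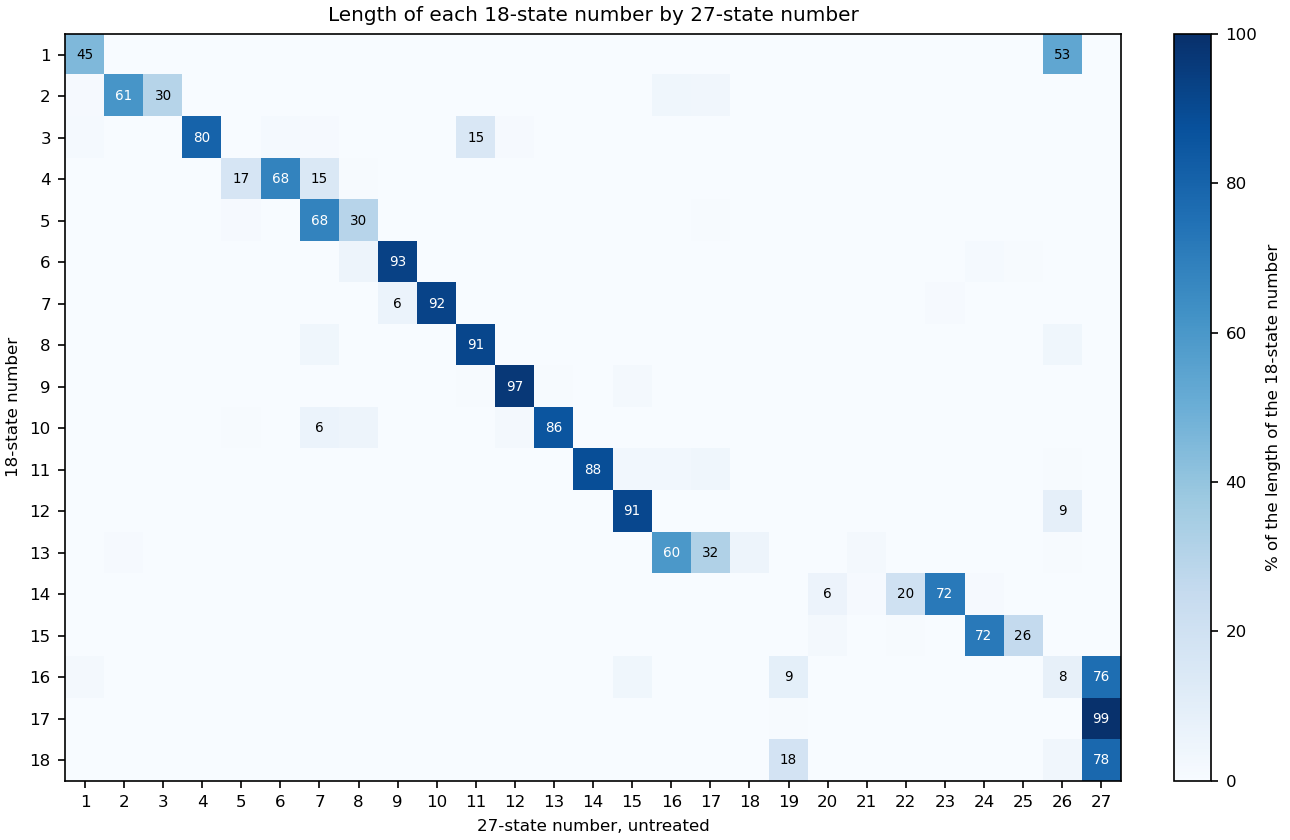
Percent of the length of each 18-state number (vertical axis) that carries each untreated 27-state number (horizontal axis), with values printed for components of at least 5%. Numbers 17, 9, 6, 7 and 8 pass almost whole into 1 column, while 1, 2, 4, 5, 13, 14, 15 and 18 spread over 2 or 3.

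In bits, knowing the 18-state number removed 61.2% of the uncertainty about the 27-state number of a step (entropy 1.86 bits, shared information 1.14 bits). Knowing the 27-state number removed 57.2% of the uncertainty about the 18-state number. Without numbers 16, 17 and 18 these shares were 73.6% and 89.0%, but that subset is chosen by the 18-state number, so the order of the pair is not read from it. Neither segmentation nests fully in the other.

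The boundaries between intervals were compared next. Of 407779 boundaries in the 18-state segmentation 71.0% were at the same base in the 27-state segmentation, while 53.2% of its 544162 boundaries were shared. The order of these shares follows from the totals, since the shared boundaries are the same 289409. A tolerance of 200 bp raised these shares to 76.9% and 63.0%. The other 27-state boundaries, 254753 in all, fall inside an 18-state interval. Between 19 and 27 in number 18 lay 35.3% of them, between 1 and 26 in number 1 14.7%, between 15 and 26 in number 12 7.76%, between 16 and 17 in number 13 4.76%, and between 2 and 3 in number 2 4.16%. The largest single source of added boundaries was thus the division of the mark-poor number 18.

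The histone marks that the 27-state numbers resolve clearly better than the 18-state numbers are the ones that only the 27-state file names. The share of the variance of H3K27ac coverage between steps that lies between numbers was 56.8% for the 18 numbers and 78.4% for the 27. For H3K27me3 it went from 9.41% to 71.6%. The 27-state share was higher on 20 of 20 chromosomes for each of these marks. The highest H3K27me3 coverage of any 18-state number was 22.5% (number 18), against 97.9% for number 20 of the 27.

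The 5 marks named with both files hardly moved. The between-number share was 69.4% and 70.4% for H3K4me1, 87.8% and 87.8% for H3K4me3, 66.3% and 66.3% for H3K36me2, 75.9% and 74.8% for H3K36me3, and 76.7% and 76.4% for H3K79me2, in the order 18 and 27. By chromosome the 27 numbers had the higher share for H3K4me1 on 20 of 20, with a gain of 0.973 points, for H3K36me2 on 11, for H3K4me3 on 9, for H3K36me3 on 2 and for H3K79me2 on 1. For PU.1 the share went from 25.2% to 28.6% and was higher with the 27 numbers on 20 of 20 chromosomes. Chromosomes of 1 library are not replicates, so this count is a description.

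**Figure D2:**
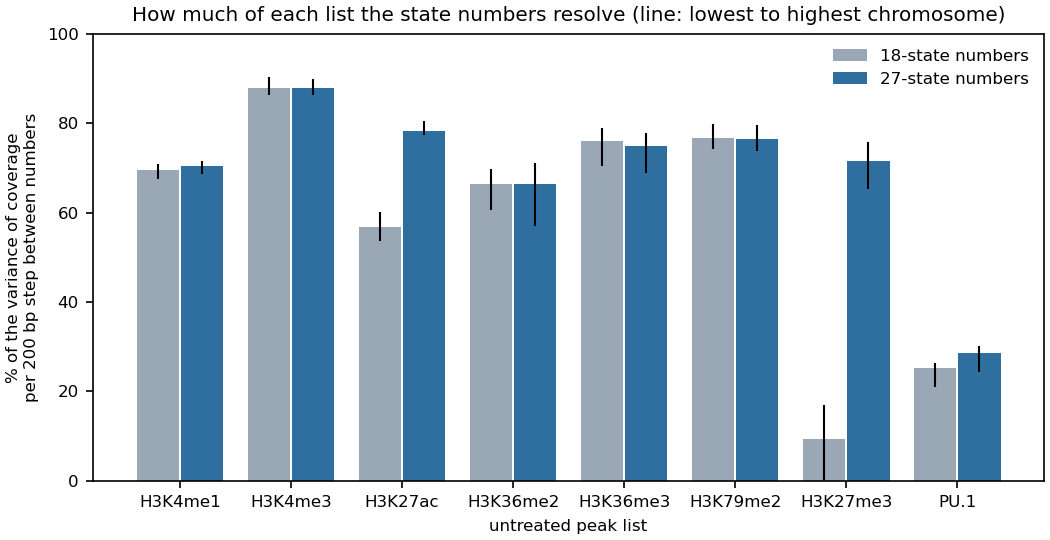
Percent of the variance of coverage per 200 bp step that lies between state numbers, for the 8 untreated peak lists, with the 18 numbers in grey and the 27 in blue and lines from the lowest to the highest chromosome. H3K27ac goes from 56.8% to 78.4% and H3K27me3 from 9.41% to 71.6%, and the marks that both files name stay level.

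A number of intermediate coverage mixes marked and unmarked steps. With 20% to 80% coverage counted as intermediate, 6 of the 18 numbers were intermediate for H3K27ac, and their 111.5 Mb held 59.3% of the H3K27ac list. Among the 27 numbers 6 were intermediate, with 45.01 Mb and 18.6% of the list. For H3K27me3 number 18 of the 18-state segmentation alone was intermediate and held 95.3% of the list, and none of the 27 was. H3K36me2 went the other way, from 7 numbers with 16.3% of its list to 11 numbers with 51.3%.

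The mark with the widest gap between the components of a number was H3K27ac for numbers 2, 4, 5, 13 and 15, at 55.1 to 84.0 percentage points. It was H3K27me3 for numbers 14, 16 and 18, at 89.4 to 97.7 points. H3K36me2 had the widest gap in numbers 10 and 12 (37.2 and 21.0 points), H3K36me3 in numbers 1 and 3 (16.1 and 8.99 points), and H3K4me1 in number 7 (45.02 points). In 8 of the 13 split numbers the widest gap was thus in a mark that the 18-state file does not name.

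**Figure D3:**
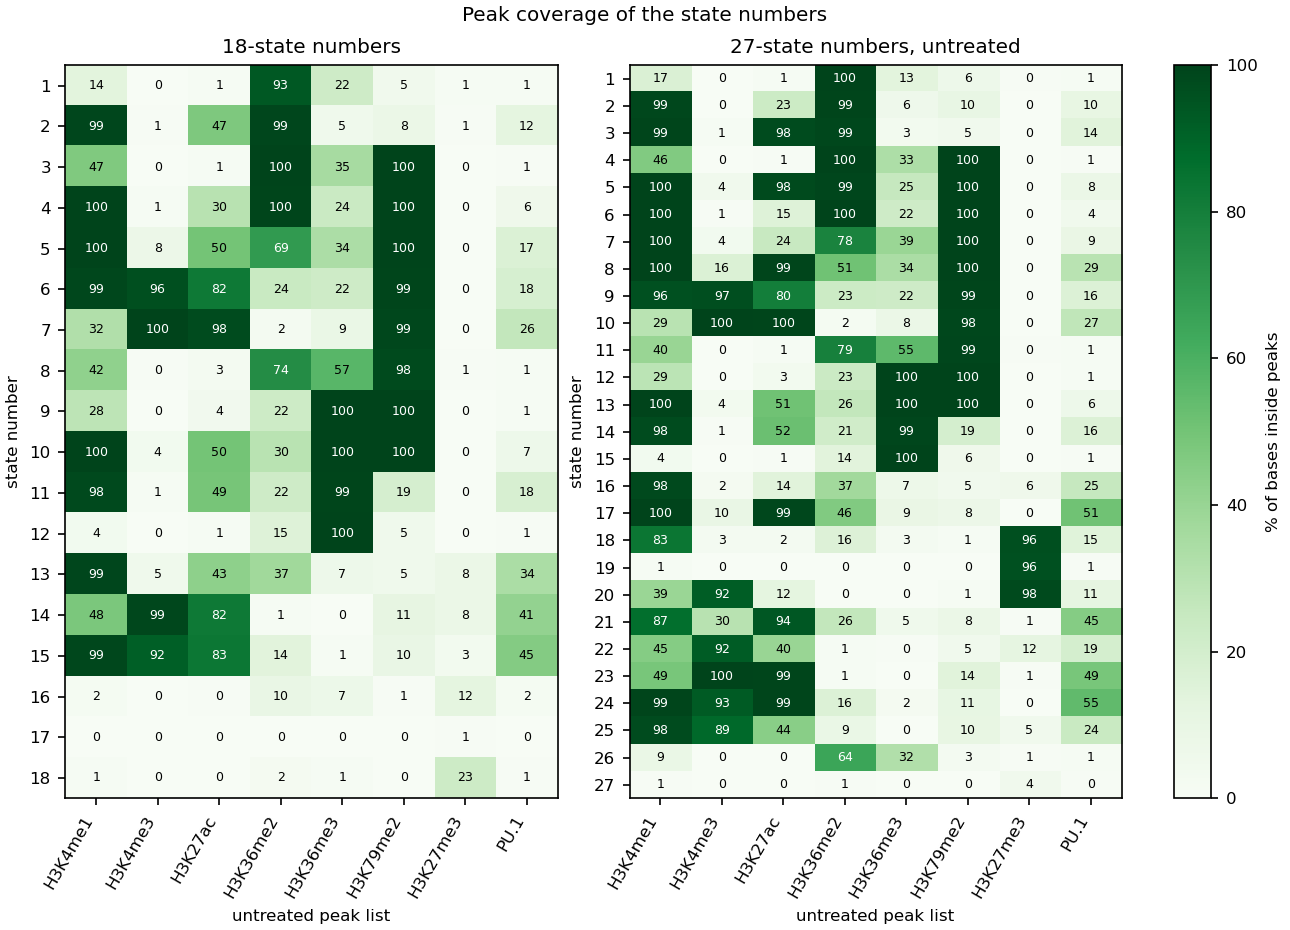
Percent of bases of each 18-state number (left) and each untreated 27-state number (right) inside the peaks of 7 histone marks and PU.1 in untreated cells. On the left no number passes 22.5% for H3K27me3, and on the right numbers 18, 19 and 20 lie between 95.7% and 97.9%.

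Number 13 of the 18-state segmentation is the main H3K4me1 number without H3K4me3 or transcription marks, the pattern of distal enhancers. It covers 52.7 Mb, 2.00% of the genome, and 42.8% of its bases are in H3K27ac peaks. It divides into 13/16, with 59.7% of its length, and 13/17, with 31.7%. H3K4me1 coverage was 98.7% in 13/16 and 99.95% in 13/17, while H3K27ac coverage was 14.8% and 98.8%. So the division separates steps with H3K4me1 that are mostly outside H3K27ac peaks from steps that are nearly all inside them. H3K27ac coverage of 13/16 was 11.5% to 16.7% by chromosome and that of 13/17 98.2% to 99.1%, and the ranges do not overlap. The gap was 75.2 points when histone peaks needed a −log10 q of at least 5.

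A smaller piece, 13/18 with 2.48 Mb, joins H3K4me1 (97.7%) with H3K27me3 (96.5%) and has 2.84% H3K27ac, the combination described for poised enhancers. Its H3K27me3 coverage was not read at a −log10 q of at least 5. At that limit the H3K27me3 gap between 18/19 and 18/27 was only 9.69 points. Number 18 of the 27-state segmentation takes 67.9% of its 3.66 Mb from number 13 and 14.7% from number 18 of the 18-state segmentation. As an example, the longest 13/16 run outside chromosome 18, chr5:142866001-142872800 on mm9 (6800 bp), was all inside H3K4me1 peaks, had no H3K27ac, and held 3 PU.1 summits. Its counterpart, the longest run of 13/17, chr17:26666401-26672800 (6400 bp), was all inside both H3K4me1 and H3K27ac peaks, with 59.6% of its bases in PU.1 peaks and 5 summits. These runs show the pair at its extremes, since the median run was 600 bp in 13/16 and 400 bp in 13/17. No mm9 gene annotation was used here, so regions are given by position only.

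Number 2 joins H3K4me1 with H3K36me2 and covers 23.5 Mb. It divided along H3K27ac in the same way, into 2/2 with 60.9% of its length and 22.5% H3K27ac coverage and 2/3 with 30.1% and 97.8%. H3K36me2 coverage was 99.5% and 98.8%, so the mark that sets number 2 apart from number 13 does not divide it. The longest run of 2/2, chr16:96056001-96060600, had 17.9% of its bases in H3K27ac peaks in untreated cells, 68.3% after 1 h of LPS and 100% after 4 h. In contrast, the longest run of 2/3, chr2:78891201-78896000, was inside H3K27ac peaks in all 3 conditions. Neither run is typical of its component. Over all steps H3K27ac coverage before LPS, at 1 h and at 4 h was 22.5%, 16.03% and 24.8% in 2/2. In 2/3 it was 97.8%, 71.8% and 75.4%.

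Numbers 4 and 5 add H3K79me2, the mark of the first part of transcribed genes, to H3K4me1. Number 5 (12.1 Mb, 49.7% H3K27ac) divided into 5/7 with 67.9% of its length and 26.6% H3K27ac and 5/8 with 29.5% and 99.3%. Number 4 (8.09 Mb, 99.6% H3K36me2) divided into 4/6 with 67.8% of its length and 15.6% H3K27ac, 4/5 with 16.6% and 97.9%, and 4/7 with 14.5% and 17.1%. Numbers 6 and 7 of the 27 are alike in H3K27ac inside number 4, and differ there in H3K36me3, at 21.8% in 4/6 and 33.6% in 4/7. In this group too, each number has 1 component that is almost wholly acetylated.

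The division along H3K27ac was less complete in the gene-body numbers with H3K4me1. Number 10, with H3K4me1, H3K36me3 and H3K79me2 all near 100%, passed mainly into 10/13 (85.9%), where H3K27ac coverage stayed at 50.2%. Number 11, with H3K4me1 and H3K36me3, passed mainly into 11/14 (88.5%), with H3K27ac at 50.0%. These main components remain intermediate for H3K27ac in the 27-state segmentation. The small pieces of number 10 do differ in it, with 16.3% in 10/7 and 99.9% in 10/8, which is just under the 5% limit. The widest gap between the components of number 10 was in H3K36me2, at 26.2% in 10/13 and 63.4% in 10/7. The longest run of 10/13, chr11:103244001-103259800 (15800 bp), was 80.5% inside H3K27ac peaks and held 3 PU.1 summits.

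Promoter numbers, with H3K4me3 above 90%, are 14, 15, 6 and 7. Number 14 (16.01 Mb) divided into 14/23 with 71.6% of its length, 14/22 with 20.3% and 14/20 with 5.67%. H3K4me3 coverage was 99.7%, 95.8% and 94.9% in that order, and H3K27ac coverage was 99.2%, 41.4% and 12.4%. H3K27me3 coverage was 0.574%, 11.4% and 98.3%. The 27 numbers thus separate acetylated promoter steps, steps with less acetylation, and steps that hold H3K4me3 together with H3K27me3, the bivalent combination known from silent developmental promoters. The share of 14/20 was 3.62% to 8.13% of number 14 on autosomes and 1.66% on X. Its H3K27me3 coverage was not read at a −log10 q of at least 5 either.

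Number 15 (7.74 Mb) joins H3K4me3 with H3K4me1, as at promoter flanks. Its components were 15/24 with 71.6% of its length and 99.2% H3K27ac and 15/25 with 25.6% and 44.2%. The longest run of 14/23, chr11:103220601-103225000 (4400 bp), was inside H3K27ac peaks in all 3 conditions and held 4 PU.1 summits. Among 14/22 steps the longest run, chr13:21250801-21253800 (3000 bp), had no H3K27ac before LPS or at 1 h, 47.0% at 4 h, and 1 summit. For 15/25 the longest run, chr9:50657801-50659200 (1400 bp), had 2 summits and no H3K27ac in any of the 3 conditions. PU.1 summits therefore lay in promoter runs with and without H3K27ac.

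Numbers 6 and 7 are promoter steps with H3K79me2, and they were already high in H3K27ac in the 18-state segmentation, at 82.1% and 97.6%. Number 6 passed into 6/9 (93.2%) and number 7 into 7/10 (92.4%). The small component 7/9 (6.13%) had H3K4me1 at 74.4%, against 29.4% in 7/10. In 6/9 it was 98.6%, so number 9 of the 27 takes the promoter steps richer in H3K4me1 from both. Transcribed promoters were thus left almost undivided.

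Gene-body numbers almost without H3K4me3 and with partial or little H3K4me1 passed mostly into 1 number each. H3K4me1 coverage was 46.6% in number 3, 42.0% in number 8, 28.1% in number 9 and 3.74% in number 12. Number 9 (H3K36me3 and H3K79me2) passed into 9/12 (96.7%), number 8 (H3K79me2 with partial H3K36me2 and H3K36me3) into 8/11 (91.3%), and number 12 (H3K36me3) into 12/15 (91.0%) and 12/26 (8.70%). Number 3 (H3K36me2 and H3K79me2) divided into 3/4 (80.5%) and 3/11 (14.9%). In 12/15 the longest run, chr4:32752601-32854600 (102000 bp), was inside H3K36me3 peaks throughout, with 0.743% of its bases in PU.1 peaks.

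Number 1 (142 Mb), which carries H3K36me2 at 93.4% and little else, was the largest number outside the mark-poor ones to divide nearly evenly. It gave 1/26 with 53.3% of its length and 1/1 with 44.9%. H3K36me2 coverage was 88.1% and 99.9%, and H3K36me3 coverage 29.4% and 13.3%. Number 26 of the 27-state segmentation gathers steps from several places, with 52.3% of its 145 Mb from number 1, 35.9% from number 18 and 8.87% from number 12. Its H3K36me2 coverage was 88.1% in 1/26, 38.3% in 18/26 and 34.4% in 12/26, and its H3K36me3 coverage 29.4%, 20.1% and 98.4%. So 1 number of the 27 spans steps that the 18-state segmentation kept apart. Number 1 was 27.9% 1/1 on X, below its range of 35.1% to 51.1% on autosomes.

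The numbers with few marks divided along H3K27me3, the mark of Polycomb domains. Number 18 (1535 Mb, 22.5% H3K27me3) gave 18/27 with 78.3% of its length and 6.36% H3K27me3 coverage, and 18/19 with 18.2% and 95.8%. The other histone marks were at or below 1.49% in each. When H3K27me3 peaks had to reach a −log10 q of 5, the gap between them was 9.69 points in place of 89.4, so the contrast rests on peaks below that limit. Number 16 (40.3 Mb) gave 16/27 (75.8%), 16/19 (9.02%, H3K27me3 95.3%) and 16/26 (7.89%, H3K36me2 57.8%). Its H3K27me3 gap between 16/19 and 16/27 was 90.6 points, and 9.93 under the same q limit. Number 17 (588 Mb) passed into 17/27 (99.5%), with H3K27me3, at 0.314%, as its highest histone mark.

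The longest run of 18/19, chr15:102598601-102709600 (111000 bp), was inside H3K27me3 peaks throughout before LPS, 98.9% at 1 h and 100% at 4 h. In 18/27 the longest run, chr7:39355401-46395000 (7039600 bp), held no peak in any of the 8 untreated and 6 LPS lists used. These stretches have the same state number in the 18-state segmentation and different numbers in the 27-state segmentation.

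The mark-poor numbers also vary by chromosome. Number 17 of the 18-state segmentation covers 11.4% to 30.5% of each autosome (median 23.8%) and 0.525% of X, and number 18 covers 49.0% to 63.8% of each autosome and 90.4% of X. Component 18/19 was 12.5% to 30.7% of number 18 on autosomes and 2.26% on X. Number 17 lies almost outside all peaks, while 22.5% of number 18 is in H3K27me3 peaks and 18.2% of it takes number 19.

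Number 21 of the 27-state segmentation, the other number that is a component of none, covers 1.90 Mb. It takes 52.6% of its length from number 13, 17.3% from number 18 and 13.9% from number 1. H3K27ac coverage was 93.8%, H3K4me1 86.6% and H3K4me3 29.96%. It had the densest PU.1 summits of the 27 numbers, 1042 per Mb, with a median fold enrichment of 14.5 over the caller's background. Within number 13 alone, 13/21 reached 1353 summits per Mb, above 13/17 and 13/16.

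PU.1, which neither file names, divided along with most of the H3K27ac divisions. The untreated list has 107962 distinct summits on these chromosomes, or 40.9 per Mb. Number 13 of the 18-state segmentation holds 32.2% of them (95% Wilson interval 31.9% to 32.4%). Summit density was 552 per Mb in 13/16 (95% Poisson interval 543 to 560) and 876 per Mb in 13/17 (862 to 890). These intervals cover counting error only. By chromosome the density was 451 to 618 per Mb in 13/16 and 682 to 948 in 13/17, so the ranges over 20 chromosomes do not overlap. The log2 ratio was 0.67. PU.1 peaks covered 26.1% of 13/16 and 51.6% of 13/17, and the median fold enrichment at summits was 7.29 and 10.4. Among peaks at or above the median fold of the list the log2 ratio was 0.95.

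In the H3K4me1 numbers with H3K79me2 the order was the same. Summits numbered 236 per Mb in 5/7 (226 to 247) and 582 in 5/8 (558 to 608). In number 4 they numbered 104 per Mb in 4/6 (95.2 to 112), 145 in 4/7 (124 to 168) and 162 in 4/5 (141 to 185). The intervals of 4/7 and 4/5 overlap, although H3K27ac coverage is 17.1% in the first and 97.9% in the second.

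At promoters the density was 962 per Mb in 14/23 (944 to 980), 461 in 14/22 (438 to 485) and 260.0 in 14/20 (228 to 295). It was 723 per Mb in 15/24 (701 to 746) and 429 in 15/25 (401 to 459). The bivalent steps 14/20 were thus the lowest of number 14, though above the 40.9 per Mb of all steps. In the gene-body components of intermediate H3K27ac, density was 139 per Mb in 10/13 and 338 in 11/14.

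Number 2 was the exception. Density was 223 per Mb in 2/2 (215 to 231) and 209.9 in 2/3 (199 to 221), with H3K27ac coverage of 22.5% and 97.8%. PU.1 coverage went the other way, at 10.0% and 14.7%, a difference of 4.66 points. Among steps whose neighbours on each side have the same 2 numbers, this difference was −1.89 points. No direction can be given for PU.1 between these components.

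**Figure D4:**
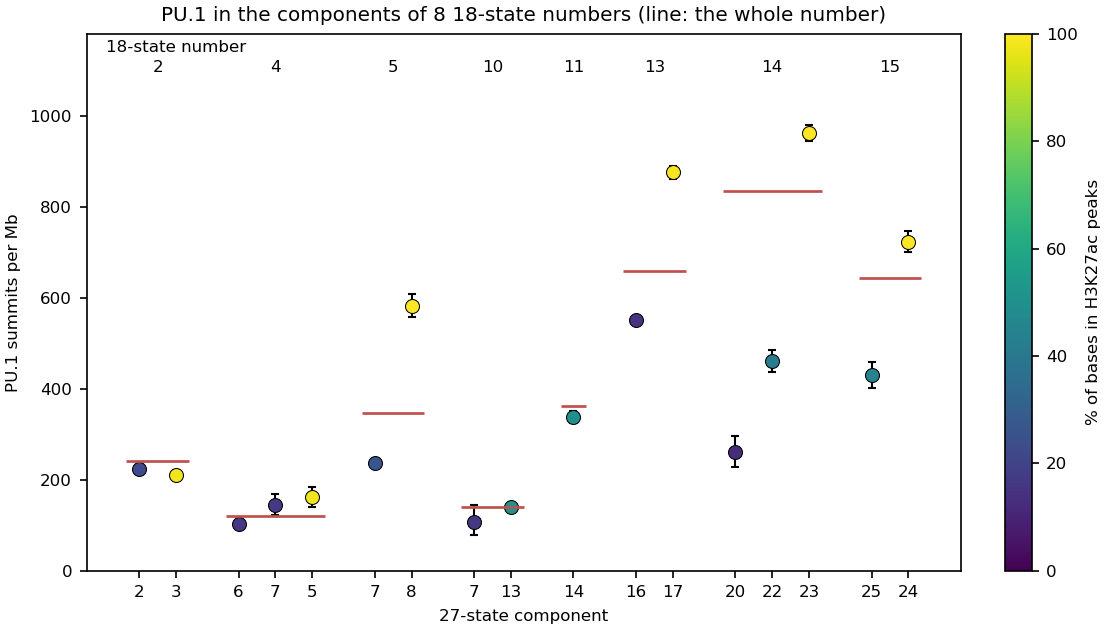
PU.1 summits per Mb (vertical axis) in the components of 8 18-state numbers, coloured by the percent of bases in H3K27ac peaks, with 95% Poisson intervals as bars and a line at the density of the whole 18-state number. The acetylated component lies above the other in numbers 5, 13, 14 and 15, and below it in number 2 (209.9 against 223 per Mb).

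The H3K27ac list and the 27-state number were then crossed, by whether a step lay wholly inside, partly inside or outside H3K27ac peaks. Summit density in 13/16 was 538 per Mb in steps outside H3K27ac peaks (529 to 547) and 705 in steps wholly inside (677 to 734). In 13/17 it was 895 per Mb in steps wholly inside (880.1 to 909). Acetylated steps of number 13 therefore differed in PU.1 by their 27-state number. The same held for number 14, with 482 per Mb in acetylated steps of 14/22 and 974 in those of 14/23. It also held for number 5, with 287 in 5/7 and 586 in 5/8, and for number 15, with 510 in 15/25 and 736 in 15/24. Number 4 did not follow fully. Its acetylated steps had 163 per Mb in 4/5 (141 to 186), 186 in 4/7 (127 to 263) and 114 in 4/6 (90.8 to 141). There 4/7 was not below 4/5. In number 2 the 3 values were 230.3 per Mb outside and 229.7 inside peaks in 2/2 and 211 inside peaks in 2/3.

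Components can lie in different places, so density was also compared within the 18-state intervals that hold both. This comparison was chosen after the data were seen. In 9683 intervals of number 13 that hold both, of 60898 that hold either, density was 885 per Mb in 13/17 and 394 in 13/16, a ratio of 2.25. The 13/17 part was denser in 4331 intervals, the 13/16 part in 1732, and they were equal in 3620. The ratio over all steps was 1.59, so it was larger where the components adjoin.

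Pooled over intervals, the other numbers kept their order in this comparison, with 2 exceptions. Density was 600.2 per Mb in 5/8 and 212 in 5/7 (ratio 2.84), 736 in 14/23 and 446 in 14/22 (1.65), 181 in 4/5 and 111 in 4/6 (1.63), and 636 in 15/24 and 568 in 15/25 (1.12, over 470 intervals, with overlapping Poisson intervals of 530 to 757 and 436 to 726). In number 2 the order turned, with 229 per Mb in 2/3 and 188 in 2/2 (ratio 1.22), against a ratio of 0.942 over all steps. Interval by interval the order was less plain, with 4/5 denser in 115 intervals and 4/6 in 115 (1218 equal), and 2/3 denser in 882 and 2/2 in 856. In number 18 it turned as well, with 18.1 per Mb in 18/19 and 20.2 in 18/27 (ratio 0.896), against 19.7 and 13.6 over all steps.

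After LPS, the components of a number stayed apart in the lists of the same marks. The LPS libraries also name the 27-state files, so these lists are not independent of the 27 numbers. H3K27ac coverage of 13/17 was 98.8% before LPS, 80.9% at 1 h and 85.4% at 4 h, and that of 13/16 was 14.8%, 12.5% and 20.9%. In number 2 it was 97.8%, 71.8% and 75.4% in 2/3 and 22.5%, 16.03% and 24.8% in 2/2. Promoter steps 14/23 stood at 99.2%, 95.5% and 97.5%, and 14/22 at 41.4%, 40.4% and 49.8%. H3K27me3 coverage of 18/19 was 95.8%, 93.4% and 94.8%, and that of 18/27 was 6.36%, 8.43% and 11.5%. The gap between components thus narrowed more in numbers 13 and 2 than in number 14, as measured in single libraries of unknown depth. The components were defined in untreated cells, where the acetylated ones were near full H3K27ac coverage and had little room to rise. The whole H3K27ac list covered 83.6 Mb before LPS, 73.1 Mb at 1 h and 90.7 Mb at 4 h.

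**Figure D5:**
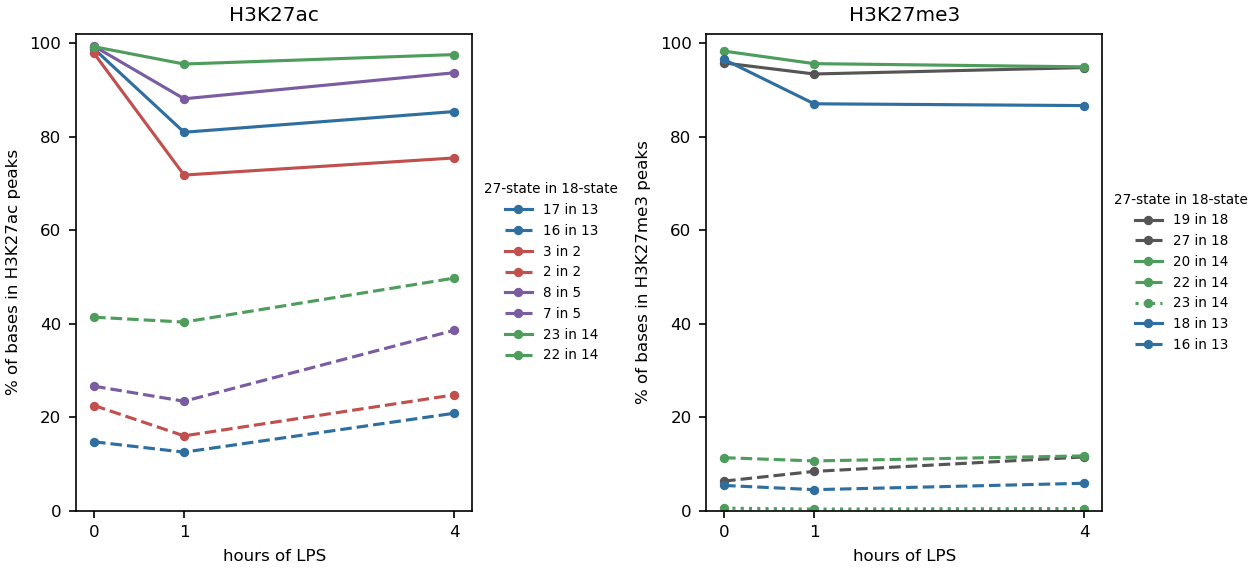
Percent of bases in H3K27ac peaks (left) and H3K27me3 peaks (right) of components of 18-state numbers at 0, 1 and 4 h of LPS, with 1 library per point and colours for the 18-state number. Acetylated components are lower at 1 h and lie above their partners at 4 h (13/17 at 85.4% and 13/16 at 20.9%), and 18/19 is never below 93.4% for H3K27me3. The whole H3K27ac list covers 83.6 Mb at 0 h, 73.1 Mb at 1 h and 90.7 Mb at 4 h.

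The between-number variance shares show the same in the LPS lists. For H3K27ac the 18 numbers held 52.2% at 1 h and 52.8% at 4 h, and the 27 untreated numbers 68.3% and 64.1%. For H3K27me3 the values were 10.1% and 11.3% with the 18 numbers and 63.7% and 58.0% with the 27. The lead of the 27 numbers was smaller after LPS than before for both marks.

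The 27-state number itself was compared step by step with the LPS segmentations. Over all steps 11.0% had another number at 1 h and 12.2% at 4 h. Most components of the H3K4me1 numbers changed far more often than that. In 13/16, 54.7% of steps kept their number at 1 h and 52.6% at 4 h. In 13/17 it was 47.7% and 48.1%, with 21.5% and 15.01% moving to 16. From 13/16 to 17 moved 3.72% at 1 h and 7.53% at 4 h. A larger share of 13/17 thus took the less acetylated number 16 than the reverse, at each time. The totals differ, with 83525 steps in 13/17 and 157502 in 13/16, so no net change is read from these shares.

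Steps also moved between numbers that differ in untreated H3K36me2 coverage. The H3K36me2 lists after LPS were not read here, so these are changes of number only. From 13/16 to number 2, which adds H3K36me2, went 10.9% at 1 h and 14.4% at 4 h, and from 13/17 to number 3 went 9.52% and 13.7%. Of 1/26, 39.4% and 56.8% moved to number 1, which has more H3K36me2. Component 3/11 kept its number in 20.5% and 12.8% of steps and moved to 4 in 69.4% and 72.8%. Component 4/7 kept it in 15.9% and 12.3% and moved to 6 in 49.3% and 55.2%. Of the 34 components, 3/11 and 4/7 kept their number in the lowest shares of steps at both times. Untreated H3K36me2 coverage was already 99.2% in 3/11 and 99.0% in 4/7, against 99.8% in numbers 4 and 6. Coverage so near its ceiling leaves little room to show a rise, so no direction in H3K36me2 is read from their moves.

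Several promoter and Polycomb components kept their number more often than the H3K4me1 components did, but not all. Component 14/23 kept its number in 79.8% of steps at 1 h and 78.7% at 4 h, and 7/10 in 87.7% and 89.6%. Components 15/24 (45.9% and 54.3%), 15/25 (38.5% and 40.8%) and 7/9 (57.3% and 52.6%) lay near 13/16. Bivalent steps 14/20 kept it in 77.0% and 71.2%, and 8.75% and 15.4% moved to 22, which has 11.6% untreated H3K27me3 coverage. By the peak lists, H3K27me3 coverage over all 14/20 steps was 98.3% before LPS, 95.6% at 1 h and 94.9% at 4 h. Of 14/22, 12.8% and 19.4% moved to the acetylated 23. Component 18/19 kept its number in 91.0% and 78.3%, with 8.28% and 20.0% moving to 27. Its H3K27me3 coverage was 95.8% before LPS, 93.4% at 1 h and 94.8% at 4 h. In 14/20 and 18/19 the coverage thus changed less than the state number, and no loss of H3K27me3 is read from these moves.

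New H3K27ac after LPS was read in steps with none before. Over all steps without untreated H3K27ac, 0.328% of bases were in H3K27ac peaks at 1 h and 0.804% at 4 h. In 13/16 the values were 7.12% and 14.7%, in 2/2 8.66% and 16.8%, in 5/7 11.8% and 24.9%, and in 14/22 11.7% and 21.3%. They were higher in the promoter components 6/9 (33.3% and 42.4%), 7/9 (41.2% and 52.0%) and 15/25 (15.4% and 27.0%). In the gene-body components with H3K4me1 they were 14.5% and 32.4% in 10/13 and 11.4% and 23.4% in 11/14. Each of these components held more new H3K27ac at 4 h than at 1 h, as did all steps without untreated H3K27ac. The whole H3K27ac list was also larger at 4 h (90.7 Mb) than at 1 h (73.1 Mb). The rise is therefore not particular to these components.

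Acetylation before LPS was retained unequally within a number. Of bases in steps wholly inside untreated H3K27ac peaks, 41.3% and 52.6% were in peaks at 1 h and 4 h in 13/16, and 82.8% and 86.9% in 13/17. In number 2 the values were 39.4% and 49.6% in 2/2 and 74.4% and 77.5% in 2/3. At promoters they were 81.0% and 88.6% in 14/22 and 96.5% and 98.2% in 14/23, against 78.4% and 83.7% over all such steps. The 27-state number thus went with retention among steps that all carried untreated H3K27ac. The untreated and LPS H3K27ac libraries all name the 27-state file, so this is a description and not an independent test.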

How the data were processed

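Per the submitters' processing notes, Bowtie 1.0.1 and mm9 were used for alignment and MACS2 for peak calling. The sources used here do not name the caller's version, settings, controls or pooling, or the segmentation tool. The authors deposited broad peaks for histone marks and narrow peaks with summits for PU.1. Fold enrichment, a deposited ratio of each peak to background, served only to rank and describe PU.1 peaks. The −log10 q is the authors' deposited value and served only as an alternative threshold. Peaks carry no read totals, so depth is unknown.

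The segmentations were read in 200 bp steps and crossed step by step. Peaks of a list were merged, and coverage is the exact share of bases inside them. Shared information was computed from step counts, and variance shares from coverage per step. Shares of summits have 95% Wilson intervals and densities 95% exact Poisson intervals. Regions named are the longest runs of the 2 largest components of each split number, outside chromosome 18, as 1-based mm9 positions. Members, comparisons and lists were chosen with earlier results of these data known. The gene and cell type lists planned for promoters were not run, since no mm9 annotation was used here. Alternatives changed the component minimum, peak threshold, step rule, interval length, chromosomes, interval edges and weak PU.1 peaks. Leaving out numbers 16, 17 and 18, and the comparison within intervals, were added after the data were seen. The step arithmetic was tested on simulated segmentations. Python 3.11.15, numpy 2.4.6, pandas 2.3.3, scipy 1.17.1 and matplotlib 3.10.9 were used.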

Additional observations from a re-analysis of the deposited data

How the results depend on the processing

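Under the 9 alternatives 25 of the 37 values of the main results moved, and none of the 20 that are differences or ratios changed sign. Of 85 values of other results, 45 moved by less than their error, 39 by more, and 1 reversed. The reversed value was the PU.1 coverage of 2/3 minus 2/2, from 4.66 to −1.89 points among steps with like neighbours. With 1 library per mark and condition, this error holds no spread between cultures, so the counts of moved values are a description. The H3K27ac gap in number 13, 84.0 points, was 75.2 at a −log10 q of at least 5, 84.9 with steps marked by majority, 85.0 in intervals of at least 400 bp and 86.8 with like neighbours. The H3K27me3 gap in number 18, 89.4 points, was 9.69, 89.6, 88.8 on autosomes and 91.3 with like neighbours, the first 2 for the q threshold and the majority rule. The PU.1 coverage gap in number 13, 25.5 points, was 26.2 in longer intervals and 29.6 with like neighbours, and its summit log2 ratio of 0.67 was 0.72 at the q threshold and 0.95 for peaks at or above the median fold. The 34 components were 60 at a minimum of 1%. For longer intervals, autosomes, like neighbours and without numbers 16, 17 and 18, in this order, the share in the largest 27-state number (81.9%) was 82.3%, 81.2%, 84.2% and 72.7%. The removed uncertainty of the 27-state number (61.2%) was 61.1%, 61.7%, 58.5% and 73.6%, and that of the 18-state number (57.2%) was 56.6%, 57.6%, 51.7% and 89.0%. The cause of these differences was not tested. No paired analysis was possible because each mark and condition has 1 library. Steps and chromosomes of 1 library are not replicates, so no spread between cultures is known, and peak coverage depends on an unknown depth.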
